A study of Mus musculus with 2 samples.

Results

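Complement is a set of blood and tissue proteins, and 9 genes of it were followed here through CT26 tumors: *C1qa*, *C1qb*, *C1qc*, *C1ra*, *C1s1*, *C3*, *C4b*, *Cfb* and *C3ar1*. They were taken by symbol from the 33696 genes listed for each library, and all 9 were found. CT26 is a mouse colon carcinoma line, here grown under the skin of male BALB/c mice aged 6 to 8 weeks. The untreated (UT) tumors received nothing, and the BUP tumors received 1 dose of BUP-Gel, a hydrogel that carries the local anesthetic bupivacaine, at 40 mg/kg. Neither group was given an empty gel, so gel and drug cannot be told apart. Cells of 3 tumors were pooled into 1 library per condition, and sorted CD45+ (immune) cells were mixed with CD45- cells at 3 parts to 1 by the study's methods and at 4 parts to 1 by the sample labels, so the share of tumor cells in a library is set partly by the mixing.

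In the classical pathway C1q is a recognition protein built from the A, B and C chains. It binds antibody or cell surfaces and carries the proteases C1r and C1s, of which C1s cleaves C4 and C2. In the alternative pathway factor B supplies the protease. Both routes meet at C3, the central component, whose fragments mark surfaces and, as C3a, act on the receptor that *C3ar1* encodes. Liver makes most complement of the blood, while macrophages are a main source of C1q and connective tissue cells can make C1r, C1s and C3 locally.

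The UT library held 7163 cells after filtering, with a median of 8430 UMIs (unique molecular identifiers, each marking 1 captured RNA molecule), and the BUP library held 6776 cells with a median of 10420. Of the barcodes, 76 occurred in both libraries. With 1 library per condition no test between conditions was possible. Levels are UMIs of a gene per 1000000 UMIs of a cell class (CPM), and each 95% interval covers counting error only, not differences between animals. Molecules were counted from the 5' end, so levels were not scaled by gene length.

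Cells were clustered without the complement genes into 31 classes, named from marker genes. The 7 tumor-like classes had a summed Y-linked level of 0 to 2.22 CPM, against 98.4 to 138 CPM in the 4 macrophage-like classes of the male hosts. The fibroblast-like class, with *Col1a1* at 12267 CPM in UT against 5748 CPM in BUP, had 134 and 122 CPM of the Y-linked genes, a level like that of the host macrophages. It held only 15 UT and 63 BUP cells. The macrophage-like cells fell into mature (984 UT and 412 BUP cells), cycling mature (238 UT and 59 BUP cells), inflammatory (1301 UT and 827 BUP cells) and interferon-led (207 UT and 74 BUP cells) classes. Of the tumor-like cells, 308 UT and 1037 BUP cells were in the class highest in *Ogn* and *Aspn*.

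The genes lie in a few places of the mouse genome (GRCm39). *C1qb*, *C1qc* and *C1qa* lie side by side on the minus strand of chromosome 4, between 136606009 and 136626161. *C1ra* (chromosome 6, 124489364 to 124500402, plus strand) and *C1s1* (124507297 to 124559389, minus strand) are neighbours 6894 bases apart. *C3ar1* lies on the same chromosome at 122823393 to 122833122, on the minus strand. *C3* (57510964 to 57535155), *C4b* (34947354 to 34962912) and *Cfb* (35074852 to 35081559) lie on the minus strand of chromosome 17. All 9 are annotated as protein-coding.

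*C1qb* with *C1qc*, and *C1ra* with *C1s1*, had like patterns over cell classes, so their promoters are shown: the 250 bases before each start site (RefSeq, GRCm38.p6), in the reading direction of the gene. Capitals mark matches, on either strand, to GAGGAA (a core that PU.1 can bind) and to TTGCNNAA (a C/EBP motif).
*C1qb* promoter, chr4:136886201-136886450, minus strand: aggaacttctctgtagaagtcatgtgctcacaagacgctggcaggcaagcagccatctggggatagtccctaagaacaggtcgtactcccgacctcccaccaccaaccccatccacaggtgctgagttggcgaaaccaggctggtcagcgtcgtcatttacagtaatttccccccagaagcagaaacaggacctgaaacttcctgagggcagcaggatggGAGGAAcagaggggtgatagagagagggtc
*C1qc* promoter, chr4:136892915-136893164, minus strand: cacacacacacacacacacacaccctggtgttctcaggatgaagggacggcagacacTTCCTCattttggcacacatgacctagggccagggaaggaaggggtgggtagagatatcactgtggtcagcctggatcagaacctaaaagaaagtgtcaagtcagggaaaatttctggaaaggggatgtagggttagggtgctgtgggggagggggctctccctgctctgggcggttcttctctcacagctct
*C1ra* promoter, chr6:124512371-124512620, plus strand: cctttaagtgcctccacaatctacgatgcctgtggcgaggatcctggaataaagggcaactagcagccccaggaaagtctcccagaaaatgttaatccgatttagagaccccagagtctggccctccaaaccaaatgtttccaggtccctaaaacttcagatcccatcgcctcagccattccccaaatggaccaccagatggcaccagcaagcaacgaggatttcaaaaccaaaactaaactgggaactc
*C1s1* promoter, chr6:124542360-124542609, minus strand: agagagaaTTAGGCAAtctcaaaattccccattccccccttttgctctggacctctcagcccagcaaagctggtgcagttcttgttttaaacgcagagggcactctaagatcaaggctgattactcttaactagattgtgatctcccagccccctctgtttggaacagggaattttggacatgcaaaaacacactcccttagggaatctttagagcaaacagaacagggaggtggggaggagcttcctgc
Both C1q promoters hold 1 match to GAGGAA, which 23.1% of 27025 promoters of this length also hold. The *C1s1* promoter holds 1 match to TTGCNNAA, found in 9.55% of promoters, and the *C1ra* promoter holds neither. No match was found in these 4 windows to the interferon response motif (GAAA, then NN, then GAAA, in 3.04% of promoters), to the STAT motif TTCNNNGAA (7.18%) or to the NF-kappaB motif (GGGA, then NN, then TTCC, in 1.17%). The promoters of *C3* and *C3ar1* were searched too but are not printed. That of *C3* holds 1 match to the C/EBP motif, 45 bases before the start, and none to the other motifs. That of *C3ar1* holds no match to any of them. Promoters of *C1qa*, *C4b* and *Cfb* were not analysed here.

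Each gene had its own set of source cells. The C1q chains were highest in mature macrophage-like cells, *C1ra* and *C1s1* in tumor-like and fibroblast-like cells, *C4b* in fibroblast-like cells, *Cfb* in interferon-led macrophage-like cells (in UT beside fibroblast-like cells, of which there were 15), and *C3ar1* in macrophage-like cells. *C3* was measured in tumor-like, fibroblast-like, macrophage-like and monocyte-like cells. Among these classes it was lowest in S-phase, mitotic, and *Krt20* and *Nppb* tumor-like cells.

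**Figure D1:**
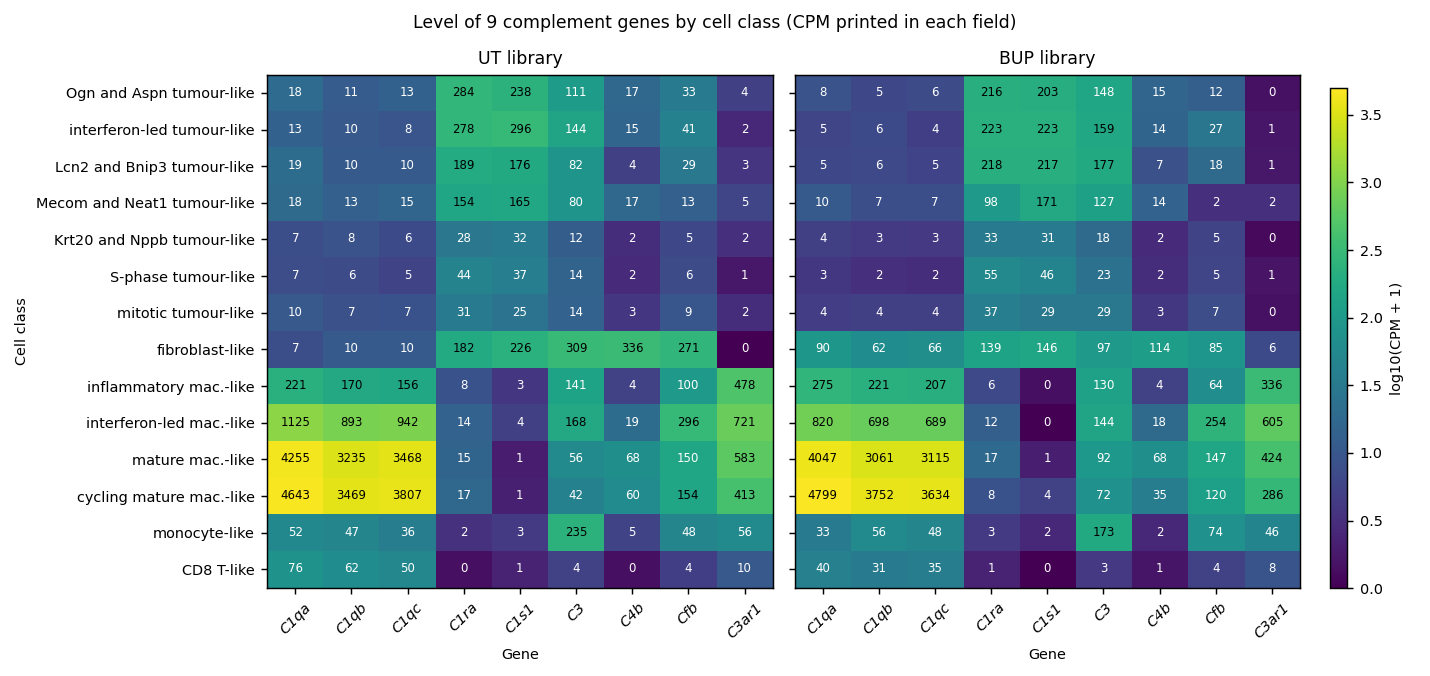
Level of the 9 genes by cell class in the UT and BUP libraries, with the CPM printed in each field and color on a log10(CPM + 1) scale. The C1q chains stand out in the 2 mature macrophage-like classes, at 3061 CPM or more, and *C1ra* and *C1s1* in 4 of the tumor-like classes and in fibroblast-like cells.

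Beginning with the recognition protein, mature macrophage-like cells had *C1qa* at 4255 CPM in UT against 4047 CPM in BUP. *C1qb* was at 3235 and 3061 CPM, and *C1qc* at 3468 and 3115 CPM. Cycling mature cells lay somewhat above these levels, with *C1qa* at 4643 and 4799 CPM. Interferon-led cells had *C1qa* at 1125 and 820.2 CPM, and inflammatory cells at 221 and 275 CPM. Monocyte-like cells had 51.8 and 33.0 CPM, from 65 and 20 UMIs, below the 75.6 and 39.5 CPM of CD8 T-like cells, a lineage that should lack the gene. In UT their *C1qb* and *C1qc* also lay below the CD8 T-like level. In BUP *C1qb* lay above it, at 56.1 CPM (38.8 to 78.4) against 31.4 CPM (25.6 to 38.2), from 34 UMIs. *C1qc* was at 47.8 CPM (32.0 to 68.7) against 34.5 CPM (28.4 to 41.6), from 29 UMIs, and these intervals overlapped. Other classes held C1q UMIs as well. Plasmacytoid dendritic-like cells, 33 in UT and 22 in BUP, had 2124 C1q UMIs among 362334 in UT and 398 among 234036 in BUP. In UT that proportion was above that of interferon-led macrophage-like cells, which had 6014 among 2031126. In BUP it was below theirs, at 1822 among 825388.

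**Figure D2:**
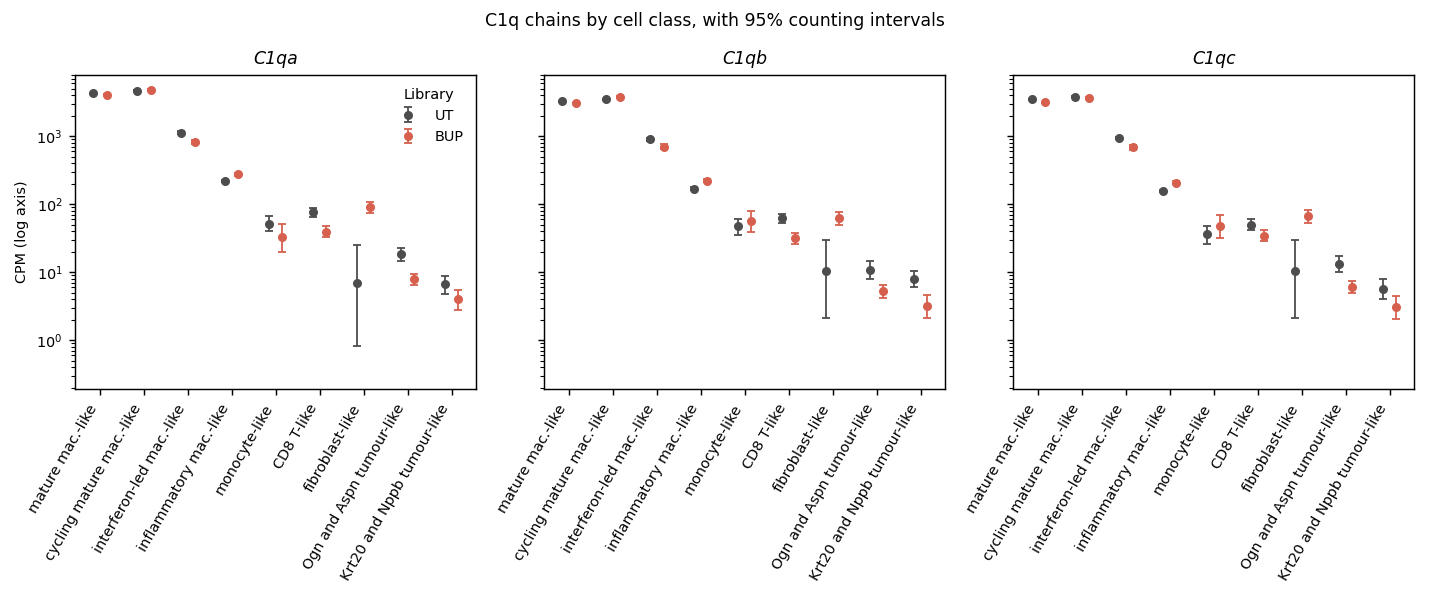
CPM of *C1qa*, *C1qb* and *C1qc* on a log axis by cell class in the UT and BUP libraries, with 95% counting intervals as bars. All 3 chains follow the same order among macrophage-like classes, from cycling mature (*C1qa* 4643 and 4799 CPM) through mature and interferon-led to inflammatory cells.

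The proportions of the C1q chains in mature cells were close in the 2 libraries. Of all C1q UMIs in mature UT cells, 38.8% were *C1qa*, 29.5% *C1qb* and 31.7% *C1qc*, and in mature BUP cells 39.6%, 29.9% and 30.5%. Over the 48 combinations of class, or sum of classes, and library with at least 100 C1q UMIs, *C1qa* made up 32.6% to 43.3%, *C1qb* 25.6% to 39.1% and *C1qc* 22.6% to 36.2%. The chains were also found in the same cells. With each cell thinned to 2000 UMIs, *C1qb* was detected in 94.7% (92.9 to 96.1%) of mature UT cells with *C1qa* and in 24.6% (17.5 to 32.9%) of those without. In BUP the shares were 95.9% (93.3 to 97.7%) and 25.6% (13.04 to 42.1%).

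Mature and inflammatory macrophage-like cells were clustered without the complement genes. Genes of like pattern, such as *Ms4a7* (r = 0.96 with *C1qa* over classes), were not left out on purpose. The gap between these classes is therefore not independent of the clustering. *C1qa* was apart by 4.27 in UT and 3.88 in BUP on the log2 scale. *C1qb* was apart by 4.25 in UT and 3.79 in BUP, and *C1qc* by 4.47 in UT and 3.91 in BUP. *C4b* was also higher in mature cells, by 4.01 in UT and 4.03 in BUP. These 4 of the 8 members with enough UMIs were at least 2-fold higher in mature cells in both libraries and none was 2-fold lower in both, where 5.77% of 8399 genes passed that fold in either direction. *C3* had a negative log2 difference of mature over inflammatory cells, -1.33 in UT and -0.49 in BUP.

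Within mature cells the C1q sum was nearly equal in the libraries, with a log2 ratio of BUP over UT of -0.10 (-0.11 to -0.086). Its sign turned under other settings, to 0.078 with cells thinned to 2000 UMIs, so no direction is given. In inflammatory cells the chains were higher in BUP, with log2 ratios of 0.32 (0.23 to 0.40), 0.38 (0.28 to 0.48) and 0.40 (0.30 to 0.51) for *C1qa*, *C1qb* and *C1qc*. Their *C1qa* level, 221 CPM in UT and 275 CPM in BUP, was near that of cDC1-like cells, at 195 and 276 CPM. Neutrophil-like cells had 179 and 88.8 CPM. The part of free macrophage RNA in the inflammatory values was not tested. In interferon-led macrophage-like cells the chains had ratios of -0.46, -0.36 and -0.45. Over all macrophage-like cells *C1qa* had a ratio of -0.43 (-0.45 to -0.41). Mature cells, cycling ones included, were 44.8% (42.9 to 46.7%) of macrophage-like cells in UT and 34.3% (31.8 to 36.9%) in BUP, and inflammatory cells 47.7% and 60.3%.

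*C1ra* and *C1s1*, the proteases that C1q carries, came mostly from tumor-like cells. These held 77.1% in UT and 88.0% in BUP of the *C1ra* UMIs of each library, and 82.6% in UT and 89.9% in BUP of the *C1s1* UMIs. *Ogn* and *Aspn* cells had *C1ra* at 284 and 216 CPM in UT and BUP, and *C1s1* at 238 and 203 CPM. Interferon-led tumor-like cells had *C1s1* at 296 and 223 CPM, and the class led by *Lcn2* and *Bnip3* at 176 and 217 CPM. The *Krt20* and *Nppb* class was lower, with *C1s1* at 31.6 and 31.4 CPM, as were mitotic cells at 24.5 and 29.4 CPM. In UT *C1s1* was highest in interferon-led tumor-like cells, whose interval did not overlap that of *Ogn* and *Aspn* cells, whereas each of the leading 5 classes of BUP overlapped the next.

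**Figure D3:**
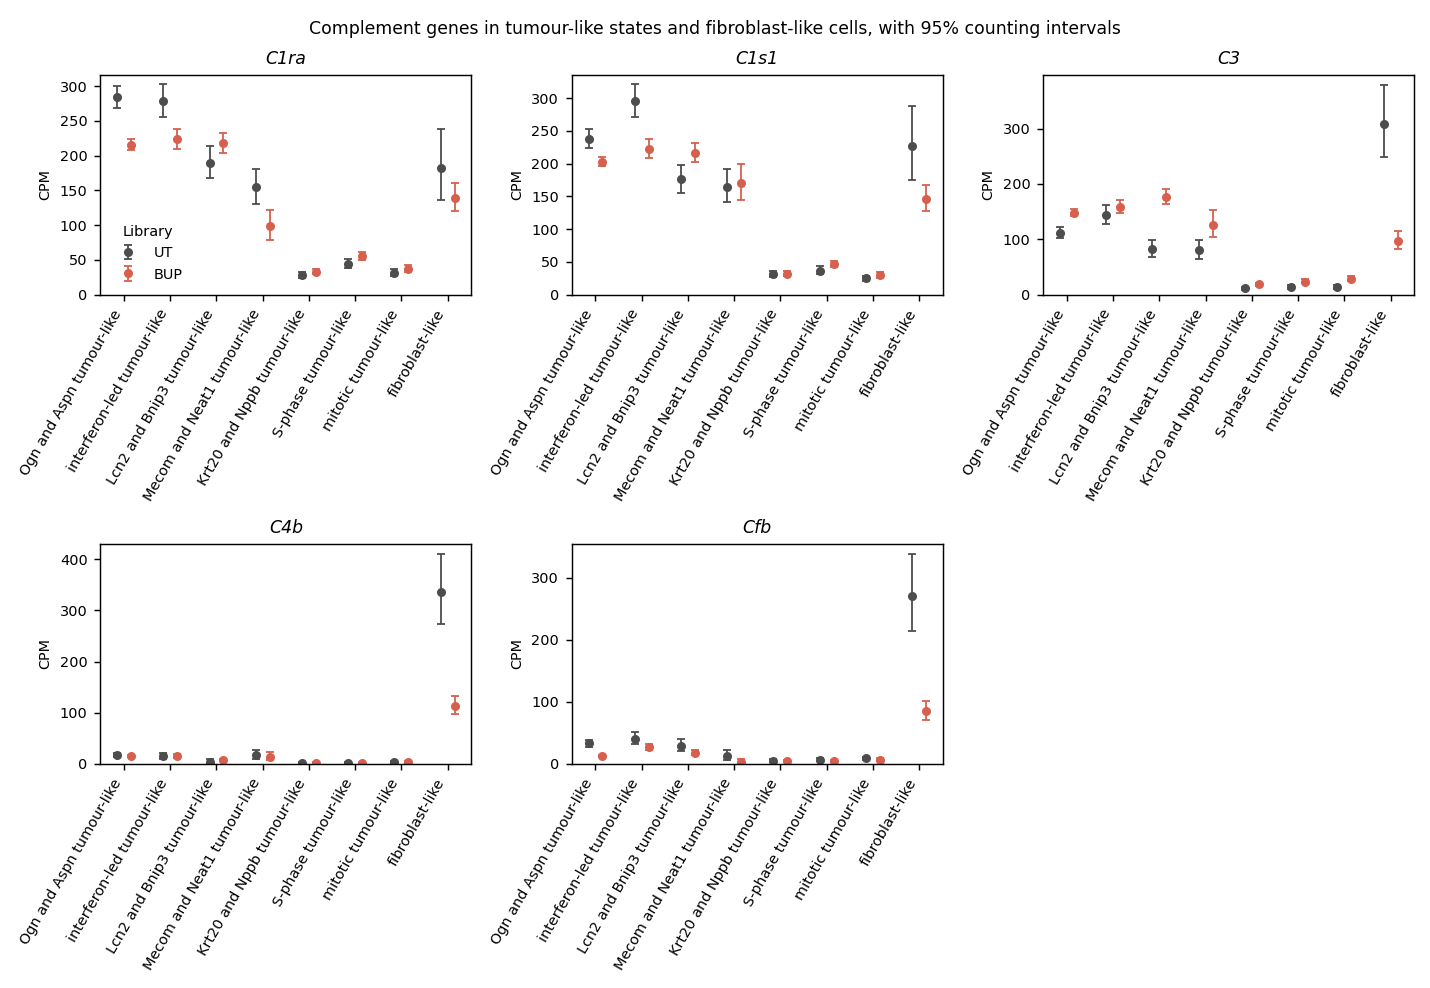
CPM of *C1ra*, *C1s1*, *C3*, *C4b* and *Cfb* in 7 tumor-like classes and fibroblast-like cells of the UT and BUP libraries, with 95% counting intervals. *C1ra*, *C1s1* and *C3* are higher in the *Ogn* and *Aspn*, interferon-led, *Lcn2* and *Bnip3*, and *Mecom* and *Neat1* classes than in the other 3 tumor-like classes, and fibroblast-like values of UT come from 15 cells.

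*Ogn* and *Aspn* cells set against *Krt20* and *Nppb* cells were higher on the log2 scale by 3.34 in UT and 2.71 in BUP for *C1ra*, 2.92 in UT and 2.69 in BUP for *C1s1*, 3.27 in UT and 3.02 in BUP for *C3*, and 2.63 in UT and 1.39 in BUP for *Cfb*. So 4 of the 6 members with enough UMIs were at least 2-fold higher in both libraries and none was lower by that fold, where 7.31% of 8565 genes passed it in either direction. Of the other complement genes, *C1s2*, *Masp1* (a protease of the lectin pathway), *Serping1* (the inhibitor of C1r and C1s) and *Clu* (clusterin, an inhibitor of the terminal complex) did the same. With the members included, 12 complement genes had enough UMIs and 8 were higher by that fold. *Fcna*, at -0.99 in UT and -0.94 in BUP, and *Cr1l*, at -0.61 and -0.29, were lower in *Ogn* and *Aspn* cells, short of 2-fold. *Serping1* was at 246 and 178 CPM in *Ogn* and *Aspn* cells and at 1108 and 874 CPM in fibroblast-like cells.

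*C1ra* and *C1s1* were near equal in most tumor-like classes but not in mature macrophage-like cells. Of both genes' UMIs, *C1ra* made up 54.4% (52.3 to 56.5%) in *Ogn* and *Aspn* UT cells and 51.5% (50.2 to 52.8%) in BUP. Over the 7 tumor-like classes and both libraries its part was 36.6% to 56.1%, the lowest being BUP cells of the *Mecom* and *Neat1* class at 36.6% (30.4 to 43.0%), from 87 UMIs of *C1ra* and 151 of *C1s1*. In mature macrophage-like cells its part was 93.6% (89.6 to 96.5%) in UT and 94.2% (87.8 to 97.8%) in BUP, with *C1ra* at 14.7 and 17.1 CPM and *C1s1* at 0.998 and 1.06 CPM. In single *Ogn* and *Aspn* cells thinned to 2000 UMIs, *C1s1* was detected in 42.02% (33.0 to 51.4%) of UT cells with *C1ra* and 29.1% (22.6 to 36.3%) of those without. In BUP the shares were 37.5% (32.4 to 42.9%) and 27.4% (24.1 to 30.9%), so the intervals were apart in BUP and overlapped in UT.

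Between conditions, *C1ra* in *Ogn* and *Aspn* cells had a log2 ratio of BUP over UT of -0.40 (-0.49 to -0.30), and *C1s1* of -0.23 (-0.33 to -0.13). Interferon-led tumor-like cells had -0.31 and -0.41. In the *Lcn2* and *Bnip3* class both were higher in BUP, at 0.20 (0.0031 to 0.40) and 0.30 (0.098 to 0.51). None of these 6 ratios reached 1.5-fold, while *C1ra* in the *Mecom* and *Neat1* class did, at -0.65 (-1.04 to -0.26) from 156 and 87 UMIs. Close copies make these values less certain. *C1s2* had 677 UMIs beside 3034 of *C1s1* in UT and 1488 beside 6377 in BUP, *C1rb* had 55 and 96 UMIs, and the annotated span of *C1s1* overlaps that of *C1rb*.

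*C3*, where the pathways meet, had several sources among the tumor-like, fibroblast-like, macrophage-like and monocyte-like classes. In UT the highest levels were 309 CPM (248 to 379) in fibroblast-like and 235 CPM (209 to 264) in monocyte-like cells. Interferon-led macrophage-like cells followed at 168 CPM, interferon-led tumor-like cells at 144 CPM and inflammatory macrophage-like cells at 141 CPM, each overlapping the next. In BUP the *Lcn2* and *Bnip3* tumor-like class was highest at 177 CPM, followed by monocyte-like cells at 173 CPM, interferon-led tumor-like cells at 159 CPM and *Ogn* and *Aspn* cells at 148 CPM, and each of the leading 10 classes overlapped the next. CD8 T-like cells had 4.22 and 3.11 CPM. Tumor-like cells held 20.9% in UT and 56.1% in BUP of the *C3* UMIs, while their part of all cells was 14.99% and 35.0%, a share that the mixing of sorted cells also sets.

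*C3* was higher in BUP in each of the 7 tumor-like classes. *Ogn* and *Aspn* cells had 111 CPM in UT against 148 CPM in BUP, with a log2 BUP/UT ratio of 0.42 (0.27 to 0.56) that came to 0.18 with cells thinned to 2000 UMIs. The *Lcn2* and *Bnip3* class had 82.2 and 177 CPM, a ratio of 1.11 (0.83 to 1.40), and mitotic cells 13.6 and 29.0 CPM, a ratio of 1.09 (0.70 to 1.49). In the interferon-led class the interval held 0, at 0.14 (-0.064 to 0.35). In thinned *Ogn* and *Aspn* cells the share with a *C3* UMI was 17.9% (13.8 to 22.8%) in UT and 21.0% (18.6 to 23.7%) in BUP, not a detectable difference at that depth. Without thinning the shares were 48.4% and 52.2% at median depths of 13514 and 13331 UMIs, and thinned CD8 T-like cells had 0.324% and 0.641%.

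In mature macrophage-like cells *C3* was at 55.9 CPM in UT against 92.5 CPM in BUP, with a log2 BUP/UT ratio of 0.73 (0.56 to 0.89). It was the 1 of 8 members past 1.5-fold there, where 4.91% of 9500 genes were past it in either direction. The share of thinned cells with a *C3* UMI was 9.03% (7.30 to 11.002%) in UT and 16.05% (12.6 to 19.99%) in BUP, and without thinning 35.8% and 49.0%. *C1s1*, which *Ogn* and *Aspn* tumor-like cells held at a level above that of *C3*, was at 0.998 and 1.06 CPM in these mature cells. *Dcn*, which the same tumor-like cells held at 1536 and 904 CPM, rose in mature cells, from 3.49 CPM (UT) to 14.5 CPM (BUP). The part of tumor RNA in the *C3* ratio was not tested. Cycling mature cells had a *C3* ratio of 0.80 (0.37 to 1.21), inflammatory cells -0.12 (-0.24 to 0.00060) and monocyte-like cells -0.44 (-0.78 to -0.12). *Itgax*, a chain of a receptor for C3 fragments, also passed the fold in mature cells, at 14.4 and 31.4 CPM.

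*C4b*, which encodes the C4 that C1s cleaves, was at 336 CPM in UT fibroblast-like cells and 114 CPM in BUP ones. Mature macrophage-like cells had 67.8 and 68.3 CPM, with a log2 BUP/UT ratio of 0.011 (-0.16 to 0.18), and cycling mature cells 59.9 and 34.6 CPM. Inflammatory cells had 4.22 and 4.18 CPM, and *Ogn* and *Aspn* tumor-like cells 16.9 and 14.96 CPM. Its close copy *C4a* had 74 UMIs beside 1909 of *C4b* in UT and 48 beside 1247 in BUP.

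*Cfb*, factor B of the alternative pathway, was at 296 and 254 CPM in interferon-led macrophage-like cells of UT and BUP, and at 149.8 and 147 CPM in mature cells. Inflammatory cells had 100.4 and 64.2 CPM, with a log2 BUP/UT ratio of -0.64 (-0.80 to -0.49), and *Cfb* was the 1 of 7 members past 1.5-fold there, where 3.36% of 8813 genes were past it in either direction. In interferon-led cells none of 6 members was past the fold, against 5.21% of 4072 genes. Over all macrophage-like cells the *Cfb* ratio was -0.38 (-0.47 to -0.30). *Cfp*, properdin, which stabilizes the protease of the alternative pathway, was at 728 and 579.7 CPM in mature cells. The annotated span of *Cfb* overlaps those of *Nelfe* and *Gm20547*.

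In *Ogn* and *Aspn* tumor-like cells *Cfb* was at 32.9 and 12.3 CPM, with a log2 BUP/UT ratio of -1.42 (-1.75 to -1.09), and 5 cells held 35.0% of its UT UMIs. With the 3 C1q chains, at -1.22, -1.03 and -1.11, it made 4 of 8 members past 1.5-fold, all lower in BUP, where 2.64% of 9618 genes were past it in either direction. Macrophage RNA moved with them. The summed level of *Tyrobp*, *Fcer1g*, *Lyz2*, *Ctss* and *Cd74*, taken as a measure of free macrophage RNA, was 163 CPM in UT and 70.0 CPM in BUP in these tumor-like cells, with *Lyz2* alone at 85.9 and 39.5 CPM. The C1q levels in these cells lay below those of CD8 T-like cells and are read as background. *Cfb* stood at 32.9 CPM beside 18.3 CPM of *C1qa* in the UT tumor-like cells, while mature macrophage-like cells had 149.8 CPM of *Cfb* beside 4255 CPM of *C1qa*. The part of macrophage RNA in the *Cfb* ratio was not tested.

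The fibroblast-like values rest on few cells. *C3* was at 309 and 97.4 CPM, with a log2 BUP/UT ratio of -1.66 (-2.06 to -1.26), *C4b* had a ratio of -1.56 (-1.93 to -1.19) and *Cfb* of -1.67 (-2.09 to -1.24). *C1s1* was at 226 and 146 CPM and *C1ra* at 182 and 139 CPM. Of 6 members 4 were past 1.5-fold lower in BUP and 1 higher, but 27.8% of 2992 genes were past the fold in this class. High doublet scores were found in 17.5% of its BUP cells and in none of its UT cells. The summed measure of free macrophage RNA was 75.5 CPM in UT and 623 CPM in BUP. The part of RNA from other cells in these ratios was not tested. In UT 5 of the 15 cells held 91.1% of the *C3* UMIs and 87.8% of the *C4b* UMIs, and 1 cell held 37 of the 79 *Cfb* UMIs. In BUP 1 cell held 80 of the 137 *C3* UMIs, and without the leading cell of each library the *C3* ratio was -2.44. The member that was higher, *C1qa*, had 2 UMIs in UT and 127 in BUP, of which 118 came from 1 cell with a high doublet score that also held 81 *Lyz2* and 119 *Col1a1* UMIs. Without cells of high doublet score its ratio was -0.16.

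**Figure D4:**
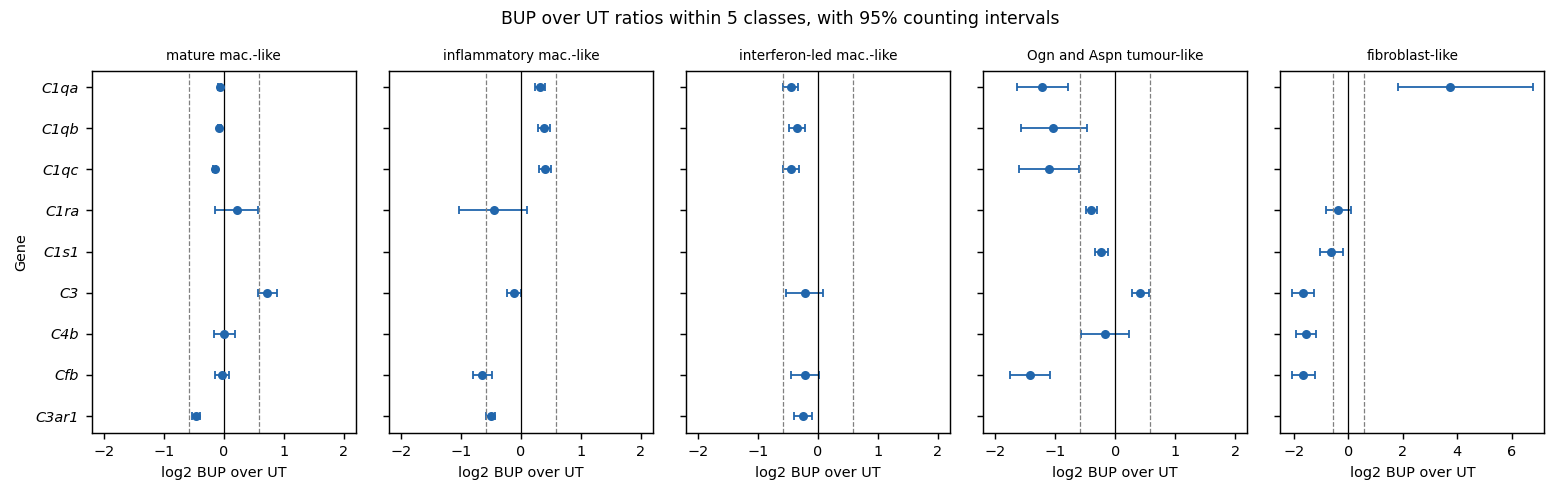
Log2 ratio of BUP over UT for the members in 5 cell classes, with 95% counting intervals as bars and dashed lines at 1.5-fold. The axis of the fibroblast-like panel is wider than the others. *C3* lies to the right of 0 in mature macrophage-like and *Ogn* and *Aspn* tumor-like cells and to the left in fibroblast-like cells, and *C3ar1* lies to the left in the 3 macrophage-like panels.

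*C3ar1*, the receptor for C3a, was measured mainly in macrophage-like cells. Interferon-led cells had 721 and 605 CPM in UT and BUP, mature cells 583 and 424 CPM, inflammatory cells 478 and 336 CPM and cycling mature cells 413 and 286 CPM. The order was the same in both libraries and the intervals of neighbours did not overlap. Monocyte-like cells had 55.8 and 46.2 CPM, tumor-like classes at most 4.94 CPM, and CD8 T-like cells 9.71 and 8.09 CPM. Fibroblast-like UT cells had 0 UMIs, which allows up to 10.3 CPM.

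*C3ar1* was lower in BUP in each of the 4 macrophage-like classes, with log2 ratios of -0.25 (-0.40 to -0.11) in interferon-led, -0.46 (-0.53 to -0.40) in mature, -0.51 (-0.58 to -0.44) in inflammatory and -0.53 (-0.72 to -0.34) in cycling mature cells. None reached 1.5-fold, and the ratio over all macrophage-like cells was -0.48 (-0.52 to -0.44). After thinning, 54.6% (51.8 to 57.4%) of UT and 44.7% (41.3 to 48.2%) of BUP inflammatory cells had a *C3ar1* UMI, against 1.62% and 1.28% of CD8 T-like cells. Without thinning the shares were 82.7% and 76.4%, at median depths of 7572 and 7847 UMIs. Interferon-led cells had thinned shares of 66.8% (59.9 to 73.2%) and 72.2% (60.4 to 82.1%), which run against the CPM, so no order is read from them. *C5ar1*, the receptor for C5a, had ratios of -0.36 in inflammatory and -0.18 in mature cells.

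Summed over each library, mature macrophage-like cells, cycling ones included, held 78.4% in UT and 60.6% in BUP of the *C1qa* UMIs, and 63.8% in UT and 33.6% in BUP of those of *C4b*. Tumor-like cells held 8.49% in UT and 29.8% in BUP of the *C4b* UMIs, and 6.40% in UT and 15.9% in BUP of the *Cfb* UMIs. Clusters with mixed markers held 14.3% in UT and 29.1% in BUP of the *C1qa* UMIs. These parts follow the make-up of each library, so they describe the libraries and not the tumors.

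**Figure D5:**
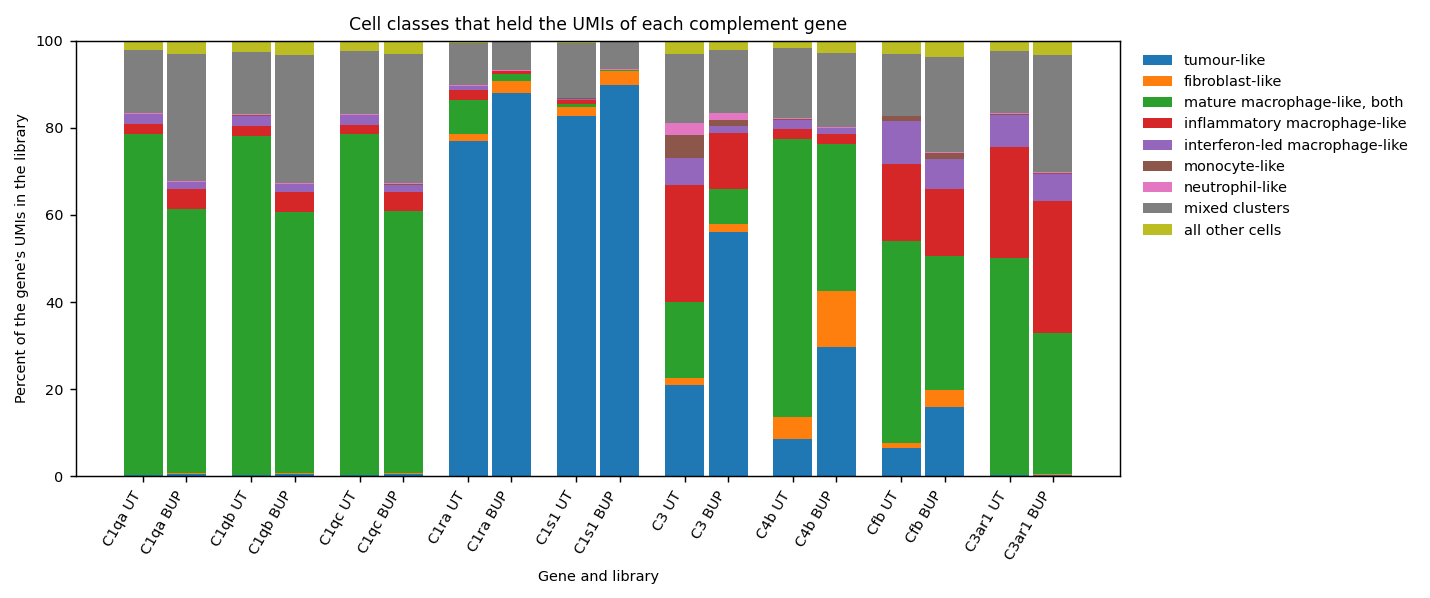
Percent of the UMIs of each gene that came from each group of cell classes, as stacked bars for the UT and BUP libraries. Tumor-like cells make up most of the *C1ra* and *C1s1* bars and mature macrophage-like cells most of the C1q bars.

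Over 28 classes with at least 20 cells in each library, taken as 56 points, the genes with the pattern most like *C1qa* were *Ms4a7* (r = 0.96), *Ccl12* (r = 0.96) and *Ccl8* (r = 0.94), and the same 3 genes led for *C1qb* and *C1qc*. For *C1s1* they were *Col6a1* (r = 0.98), *Cp* (r = 0.98) and *Prelp* (r = 0.98), and for *C1ra* *Cp* (r = 0.97), *Scarf2* (r = 0.96) and *Casp12* (r = 0.95). *C3ar1* was nearest to *Fcgr1* (r = 0.97), *Msr1* (r = 0.96) and *Arg1* (r = 0.96), and *Cfb* to *Tmem86a* (r = 0.92), *Ctsb* (r = 0.90) and *Lgmn* (r = 0.89). *C3* had *Tgm2* (r = 0.87), *Lamp2* (r = 0.82) and *Mmp19* (r = 0.82), and *C4b* had *Scamp5* (r = 0.87), *Itsn1* (r = 0.81) and *Mertk* (r = 0.80). The fibroblast-like class, with 15 UT cells, was not among these classes. With classes of at least 10 cells in each library, a choice made after seeing the data that lets it in, the nearest genes to *C4b* became *Emilin1* (r = 0.84), *Col14a1* (r = 0.83) and *Rnase4* (r = 0.81), and those of *C1s1* *Scarf2*, *C1s2* and *Vegfd*. The points share libraries and differ in depth, so these values only describe likeness.

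Of 53 complement genes in 5 lists, 34 had at least 100 UMIs over both libraries. Among initiation genes 11 of 16 did, among central components and proteases 6 of 8, among inhibitors 8 of 15 and among receptors 7 of 8. Of the 6 terminal genes 2 did, *C6* and *C8g*, with *C6* at 8.63 and 10.2 CPM in mature macrophage-like cells. *C2*, cleaved together with C4, was at 75.5 and 89.6 CPM in fibroblast-like cells. Of the list genes measured in mature macrophage-like cells, 2 of 22 were past 1.5-fold higher in BUP (*C3* and *Itgax*) and 3 lower (*C2*, *Cd59a* and *Vsig4*), where 291 of all 9500 genes were higher and 175 lower (4.91% in either direction), with a median log2 ratio of -0.052 beside -0.028 over all genes.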

How the data were processed

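Single-cell RNA (10x 5′ v2) was measured in 2 libraries, UT and BUP, grouped by the treatment in the sample labels. The authors counted UMIs per gene and barcode with Cell Ranger 8.0.1 (GRCm39, per the submitters' processing notes), and the deposited values are these counts, not normalized. Barcodes with over 100 UMIs and under 20% mitochondrial UMIs were kept. Clustering used Seurat 5.3.0 in R 4.3.3 (2000 variable genes without the complement lists, 20 principal components, resolution 0.5, no integration), and clusters with at least 30% of cells with *Ptprc*, and the rest, were each clustered again. Names rest on marker genes and on rebuilt clusters, so they may differ from the study's. Clusters with markers of 2 lineages were kept apart as mixed, and doublet scores came from Scrublet in scanpy 1.11.5, with no cell removed by score in the main values. Other cell filters, clusterings, scalings, measures and depths were tried, with their effect given at the end.

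Counts were summed by class and library in Python 3.11.15 (numpy 2.4.6, scipy 1.17.1). Intervals are exact Poisson for levels, exact binomial for shares, and exact conditional on the sum for ratios, all at 95%. A count of 0 allows 3 counts. Genes with at least 100 UMIs in a class over both libraries entered counts past 1.5-fold, and contrasts between classes needed 100 UMIs over both classes in each library, and 2-fold. Genes named beside the members are those of the complement lists and, for each member, the 3 with the highest Pearson r of log2(CPM + 10), among genes with at least 200 UMIs in each library. Members and lists were chosen with earlier results of these data known. The interval calculation was run on simulated counts: a first run of 200 changed genes fell short of the coverage set for it in 1 group of genes, and larger runs, added after that was seen, did not.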

Additional observations from a re-analysis of the deposited data

Results flagged for a closer look

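The following members were past 1.5-fold in opposite directions in different classes. Each ratio had a counting interval that excludes 0 and, unless said otherwise, at least 100 UMIs over both libraries. The classes searched were the tumor-like, fibroblast-like, macrophage-like, monocyte-like and neutrophil-like ones. The difference between classes was not tested, since each condition has 1 library.

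*C3* was higher in BUP in *Lcn2* and *Bnip3* (log2 ratio 1.11), mitotic (1.09), S-phase (0.75), *Krt20* and *Nppb* (0.66) and *Mecom* and *Neat1* (0.66, from 81 and 112 UMIs) tumor-like cells and in mature (0.73) and cycling mature (0.80) macrophage-like cells, and lower in fibroblast-like cells (-1.66). *Cfb* was higher in BUP in monocyte-like cells (0.63, from 60 and 45 UMIs). It was lower in fibroblast-like cells (-1.67, with 37 of 79 UT UMIs in 1 cell). It was also lower in *Ogn* and *Aspn* (-1.42), *Lcn2* and *Bnip3* (-0.68) and interferon-led (-0.59) tumor-like cells and in inflammatory macrophage-like cells (-0.64). *C1qa* was higher in BUP in fibroblast-like cells (3.72, with 118 of 127 UMIs in 1 cell) and lower in *Ogn* and *Aspn* tumor-like cells (-1.22) and neutrophil-like cells (-1.01). With under 100 UMIs it was also past the fold lower in most other tumor-like classes. These were *Lcn2* and *Bnip3* (-1.86), mitotic (-1.40), interferon-led (-1.38), S-phase (-1.13) and *Krt20* and *Nppb* (-0.73) cells. Outside these classes *C1qa* was also lower in BUP in plasmacytoid dendritic-like (-1.66), cycling CD8 T-like (-1.48), unnamed *Ctsk* and *Cd209a* (-1.43), NK-like (-1.03) and CD8 T-like (-0.94) cells, and higher in cells with markers of both neutrophils and macrophages (1.67). T and NK cells should lack the gene.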

How the results depend on the processing

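Values are log2 ratios of BUP over UT unless said otherwise. The C1q sum in mature macrophage-like cells (-0.10) was -0.049 with at least 1000 UMIs, 500 genes and under 10% mitochondrial UMIs, 0.035 at a resolution of 1.0, -0.058 with 30 principal components, -0.082 with complement genes kept among the variable genes, -0.072 with median-ratio scaling, 0.078 with thinned cells and 0.13 as mean log-normalized expression, so its sign depends on the setting. As differences of mean log-normalized expression per cell (natural log), a scale unlike that of the ratios, *C3* was -0.62 and *C4b* -0.49 in fibroblast-like cells, *C3* 0.082 and *C1s1* -0.098 in the largest tumor-like class, and *C3ar1* -0.27, *Cfb* -0.14 and *C3* 0.057 in all macrophage-like cells. Thinning gave 0.18 for *C3* and -0.38 for *C1s1* in the largest tumor-like class, and -0.41 for *C3ar1* and -0.23 for *Cfb* in macrophage-like cells, and median-ratio scaling -0.39 for *C3ar1*, -0.29 for *Cfb* and 0.41 for *C3* there. Without the leading cell of each library, an alternative chosen after seeing the data, *C3* in fibroblast-like cells was -2.44. *C1qa* there turned from 3.72 to -0.16 once the top 6% of doublet scores were left out, with too few UMIs left to read. With 200 UMIs in place of 100, genes past 1.5-fold numbered 296 in place of 466 in mature, 151 in place of 296 in inflammatory, 72 in place of 212 in interferon-led macrophage-like, 101 in place of 254 in *Ogn* and *Aspn* tumor-like and 364 in place of 832 in fibroblast-like cells, where fewer genes were counted. Apart from the C1q sum, the main ratios kept their sign under every alternative run, though 22 of the 66 alternatives for the main ratios, the C1q sum included, lay outside the counting interval of the main value. Of 252 alternatives for the other named ratios, 174 lay within the counting interval of the main value and 77 outside it, 1 called ratio turned (*C1qa*, above), and 20 had the opposite sign, called or not. With a pseudocount of 1 CPM in place of 10, all 3 nearest genes were shared for each C1q chain, 2 of 3 for *C4b*, *Cfb* and *C3ar1*, 1 for *C1ra* and *C1s1* and 0 for *C3*, and with the fibroblast-like class let in 0 for *C1s1* and *C4b*. No paired analysis was possible because each condition has 1 library, and for the same reason no library could be left out. The cause of these shifts was not tested.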
